A study of Mus musculus with 56 samples.

Results

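Cirbp and Rbm3 are the genes of the cold-inducible RNA-binding proteins CIRBP and RBM3, and they were taken from the liver gene table by gene identifier and symbol. They were 2 of 25374 genes tested, and 13 of their annotated transcripts, 5 of Cirbp and 8 of Rbm3, were in the transcript table. The livers came from female C57BL/6J mice, 9 weeks old, that had food only in the day (daytime-restricted feeding, DRF) or only in the night (nighttime-restricted feeding, NRF) for 7 days. All were kept in 12 h of light and 12 h of darkness, with zeitgeber time (ZT) 0 as lights on, and no group carried a transgene or a drug. Each regimen was sampled at ZT0, 4, 8, 12, 16, 20 and 24 with 4 livers per time point, which gave 14 groups and 56 libraries.

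CIRBP and RBM3 are small glycine-rich proteins with an RNA recognition motif, and both are known to rise when cells are cooled mildly. In the liver the daily cycle of body temperature is known to drive Cirbp, whose protein binds transcripts of clock genes. Feeding time is known to set the phase of the liver clock and to act on body temperature, which was not measured in these files.

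Cirbp (ENSMUSG00000045193) lies on the plus strand at chr10:80165985-80172786 of GRCm38, and the exons of the annotation cover 2604 bases. Rbm3 (ENSMUSG00000031167) lies on the minus strand at chrX:8138975-8145880, with 4698 exonic bases. Of these, 94 bases overlap exons of Rbm3os on the opposite strand. Of 5199 distinct stretches of 75 bases in the Rbm3 transcripts, 240 also occur in the pseudogene Rbm3-ps, 199 in Gm10156, 146 in Gm48583 and 23 in Gm13624. Cirbp shared none of its 2743 stretches with another gene. Part of the Rbm3 value could therefore depend on how shared reads were assigned, and the size of this part was not measured.

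The 250 bases before a Cirbp start are shown because they hold the element through which mild cold is known to act on this gene. They are from RefSeq on GRCm38.p6, chr10:80167589-80167838, plus strand, with motif matches in capitals.

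Cirbp promoter: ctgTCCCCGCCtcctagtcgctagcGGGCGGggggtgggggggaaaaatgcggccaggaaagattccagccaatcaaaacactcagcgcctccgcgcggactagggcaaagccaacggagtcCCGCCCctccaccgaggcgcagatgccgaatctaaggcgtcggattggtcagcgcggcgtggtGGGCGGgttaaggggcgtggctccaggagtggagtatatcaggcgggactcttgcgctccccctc

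The mild-cold response element TCCCCGCC began at position -247 from the start, and 4.64% of 32851 promoter windows of this length held it on either strand. The GC box GGGCGG, bound by SP1, was found at -225 and -65 on the plus strand and at -128 on the minus strand, and 32.7% of windows held it. The E-box CACGTG of BMAL1 and CLOCK, held by 6.02% of windows, and the heat shock core GAANNTTC, held by 6.69%, were not in this window. No motif match overlapped another.

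The values below are scaled counts, rebuilt from the deposited values by undoing the logarithm that they carry. A scaled count is comparable between libraries but is not divided by gene length. The 56 libraries had 303.9 to 723.0 whole counts per unit, so that every value of both genes was at least 244 recovered counts. These counts sum per library to far more than the read depth the study gives, so a recovered count is not a read, and the number of reads behind a value is unknown. Of 5 measured hepatocyte markers the summed level was 97858 to 157481, against 507 to 1204 for 6 Kupffer cell markers. None of the 4 pancreas and 3 adipocyte markers was among the genes tested. In whole liver, fewer cells of a type and less RNA per cell cannot be told apart.

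Under NRF, Cirbp was high in the light phase and low in the dark. At ZT8 the 4 livers had scaled counts of 3.19, 4.43, 3.84 and 4.07, and at ZT16 they had 0.64, 0.71, 0.85 and 0.85. These groups did not overlap, and their means, 3.88 ± 0.52 and 0.76 ± 0.10 (SD, n = 4), differed 5.11-fold. They are the highest and lowest groups of the regimen, picked by these same values. The share of all genes without overlap between groups of a regimen was not counted, here or for the groups compared below. At ZT4 the values were 2.31, 3.81, 2.64 and 4.74, and at ZT12 they were 2.77, 4.0, 2.31 and 1.75. At ZT0 they were 1.02, 2.35, 1.22 and 2.79. The 4 livers of ZT20 stayed low at 0.81, 0.79, 1.04 and 0.86, and those of ZT24 had 1.0, 1.53, 1.56 and 1.77. In the order of the group means, ZT8, ZT4, ZT12, ZT0, ZT24, ZT20 and ZT16, every pair of neighbours overlapped.

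Under DRF, Cirbp had high values at both ends of the series and a second rise at ZT8. At ZT0 the scaled counts were 4.19, 2.34, 3.11 and 2.52, and at ZT24 they were 4.17, 2.67, 2.84 and 1.61. At ZT4 they were 1.17, 1.5, 1.12 and 0.70, below every liver of ZT0 and of ZT8. The livers of ZT8 had 2.71, 1.86, 2.35 and 2.38. At ZT12 the values were 1.61, 1.3, 1.5 and 0.83, at ZT16 they were 0.87, 0.94, 1.59 and 1.25, and at ZT20 they were 2.62, 1.26, 2.09 and 1.58. The highest mean, 3.04 ± 0.83 at ZT0, was 2.70-fold the lowest, 1.13 ± 0.33 at ZT4 (SD, n = 4). Neighbours in the order ZT0, ZT24, ZT8, ZT20, ZT12, ZT16 and ZT4 overlapped. The summed level of 6 endothelial markers was highest over all groups in NRF livers of ZT8, as was Cirbp, at 461 ± 34 (SD, n = 4). Under DRF it was lowest at ZT4, as was Cirbp, at 366 ± 9. It was highest under DRF at ZT20, at 460 ± 15, where mean Cirbp was 1.89. The part of endothelial cells in the Cirbp values was not tested.

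Rbm3 under NRF rose to the end of the light phase. The livers of ZT12 had scaled counts of 4.49, 5.88, 3.94 and 4.17, and those of ZT24 had 1.75, 1.94, 1.86 and 2.92. These groups, again the highest and lowest, did not overlap, and the means of 4.62 ± 0.87 and 2.12 ± 0.54 (SD, n = 4) differed 2.18-fold. Between them, ZT16 gave 3.39, 2.97, 4.25 and 3.13, and ZT20 gave 3.16, 3.12, 2.22 and 1.88. On the rising side, ZT0 gave 1.71, 2.28, 2.40 and 2.83, ZT4 gave 2.50, 4.05, 2.10 and 3.96, and ZT8 gave 3.74, 3.72, 3.96 and 3.35. Neighbours in the order of the means overlapped in this regimen too.

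Rbm3 under DRF was highest at ZT0 and lowest at ZT20. At ZT0 the scaled counts were 5.64, 4.68, 5.15 and 4.91, and at ZT20 they were 2.04, 2.18, 2.36 and 2.60. The means, 5.09 ± 0.41 and 2.30 ± 0.24 (SD, n = 4), differed 2.22-fold with no overlap. ZT4 gave 4.09, 3.69, 3.64 and 3.39, ZT8 gave 5.80, 3.18, 4.33 and 4.51, and ZT12 gave 3.67, 2.75, 3.05 and 2.92. ZT16 gave 2.0, 2.45, 2.58 and 2.33, and ZT24 gave 3.85, 2.88, 2.57 and 2.49. Every liver of ZT24 was below every liver of ZT0, although both times are lights on.

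**Figure D1:**
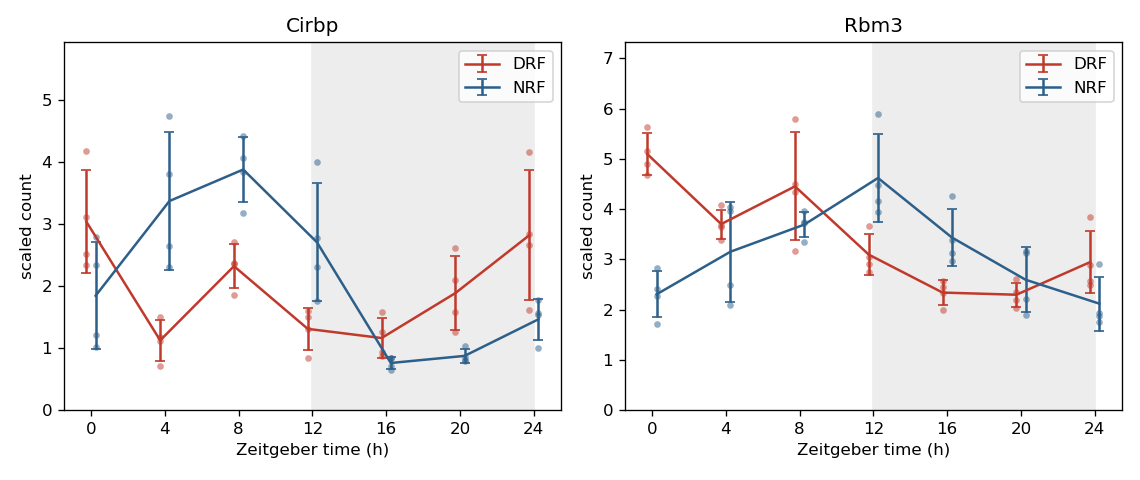
Scaled counts of Cirbp (left) and Rbm3 (right) by zeitgeber time in hours, with 1 point per liver, lines through the group means, bars of 1 SD (n = 4) and the dark phase shaded. Cirbp under NRF peaked at ZT8 with a mean of 3.88, and under DRF it had high means at ZT0, ZT8 and ZT24.

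Per kilobase of annotated exon, with all transcripts of a gene merged, the typical levels of the genes were close. The lengths of the transcripts present were not used, so the ratio depends on this choice. The ratio of Cirbp to Rbm3 per kilobase ran from 0.375 to 2.32 under DRF, with a median of 0.961, and from 0.340 to 2.27 under NRF, with a median of 1.11. Cirbp was above Rbm3 in 12 of 28 DRF livers and in 18 of 28 NRF livers. The log2 ratio of the scaled counts varied over the day under NRF, with a fitted amplitude of 1.15 and a peak at 5.17 h (permutation test of the cosinor fit, adjusted p = 2e-05, from the smallest p that 100000 permutations can give). Under DRF its amplitude was 0.49 with a peak at 20.6 h (permutation test, adjusted p = 0.00823). This comparison was chosen after the values were seen.

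A 24-h rhythm of Cirbp was clear under NRF and uncertain under DRF. As a stand-in for the MetaCycle analysis of the study, rhythms were tested by a rank test and a cosinor fit whose p-values were combined by Fisher's method. Both p-values come from the same livers, while the method takes them as independent, so the combined p-values are too small and the combined calls too many. Each result is therefore given beside the single tests and limma, which do not combine p-values. Under NRF, Cirbp passed all of them, with adjusted p = 3.93e-12 combined, 5.61e-06 by the rank test, 8.11e-07 by the cosinor F test and 1.16e-08 by limma. Under DRF the combined test gave an adjusted p of 0.0164 and limma 0.0246, but the rank test gave 0.0851 and the cosinor F test 0.0616, so the call depended on the test. It was also lost without ZT0 (combined adjusted p = 0.548) and without ZT24 (combined adjusted p = 0.352). Leaving out replicate 1, 2 or 3 gave combined adjusted p-values of 0.0989, 0.132 and 0.130.

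Rbm3 passed every one of these tests in both regimens. Under DRF the adjusted p was 4.12e-05 combined, 0.00254 by the rank test, 0.00559 by the cosinor F test and 0.000189 by limma. Under NRF these values were 1.21e-08, 0.000116, 5.33e-05 and 9.65e-06. Rhythms were common in this liver data: the combined test called 43.3% of genes under DRF and 44.6% under NRF, the rank test 32.2% and 33.5%, the cosinor F test 37.0% and 37.3%, and limma 34.9% and 43.5%.

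The daily profile differed between the regimens for both genes. Tested as a whole, by the cosine and sine terms of the regimens in limma on log2(scaled count + 1), the difference had an adjusted p of 2.63e-06 for Cirbp and 1.57e-05 for Rbm3. This test did not use the combined p-values, and it called 38.7% of all genes. Both genes stayed past the threshold under every alternative run for this test.

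The fitted peaks of both genes were earlier under DRF. For Rbm3 the fitted peak was 4.93 ± 0.72 h in DRF livers and 11.2 ± 0.79 h in NRF livers (SE), a difference of -6.23 ± 1.07 h (adjusted p = 7.93e-07 by the CircaCompare model). Without ZT0 it was -4.50 ± 0.92 h, and without ZT24 it was -6.97 ± 1.10 h, each with an adjusted p below the threshold. The DRF peak of Rbm3 itself was fitted at 6.68 h without ZT0 and at 4.15 h without ZT24. With all livers it lay near ZT4, where mean Rbm3 was 3.70, below 5.09 at ZT0 and 4.45 at ZT8. The fitted peak is therefore not the time of the highest Rbm3 under DRF. For Cirbp the fitted peak was 0.71 ± 1.32 h in DRF livers and 7.03 ± 0.44 h in NRF livers, a difference of -6.32 ± 1.39 h (adjusted p = 5.75e-05 by the CircaCompare model). The Cirbp value under DRF belongs to the rhythm that was not called by the rank and cosinor tests, and a single peak describes it poorly. Of genes that the combined test called in both regimens, 27.2% of all genes, 81.3% had a phase difference past the threshold, and 49.6% were shifted by 8 to 12 h.

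The fitted amplitude of Cirbp was 0.62 ± 0.19 under DRF and 1.68 ± 0.21 under NRF (SE, scaled counts), lower by 1.06 ± 0.29 under DRF. The direction was the same under each alternative run. Its adjusted p of 0.0107 is defined only among genes called rhythmic in both regimens, so it falls away wherever the DRF call does, and it was 0.0887 without replicate 4. Of the genes rhythmic in both regimens, 8.44% had a lower amplitude under DRF. For Rbm3 the amplitudes were 1.06 and 1.07, a difference of -0.01 ± 0.30 (adjusted p = 0.989). The mesors, the rhythm-adjusted means, were 1.87 and 2.19 for Cirbp (adjusted p = 0.374) and 3.38 and 3.28 for Rbm3 (adjusted p = 0.852). Over all genes, 3.8% had a higher and 2.66% a lower mesor under DRF.

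A 12-h component was fitted because the study searched for such rhythms. For Cirbp under DRF it had an adjusted p of 0.0172 in limma, against 0.830 under NRF, and 4.67% and 1.97% of all genes passed. The regimens were not shown to differ in it (adjusted p = 0.519, with 0.106% of genes called). The DRF call was lost without replicate 1, 2 or 3, at adjusted p-values of 0.238, 0.0584 and 0.114. For Rbm3 the adjusted p was 0.585 under DRF and 0.974 under NRF.

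At the same clock time, Cirbp was lower under DRF in the light phase and higher around lights on. The differences, DRF minus NRF on log2(scaled count + 1), were -1.02 ± 0.19 at ZT4 (SE, adjusted p = 7.72e-05 by limma), -0.56 ± 0.19 at ZT8 (adjusted p = 0.0470) and -0.66 ± 0.19 at ZT12 (adjusted p = 0.0132). They were 0.60 ± 0.19 at ZT20 (adjusted p = 0.0274), 0.60 ± 0.19 at ZT24 (adjusted p = 0.0272) and 0.53 ± 0.19 at ZT0 (adjusted p = 0.0494). At ZT16 the difference was 0.29 ± 0.19 (adjusted p = 0.350). The groups overlapped at ZT0 and ZT24 and did not overlap at the other time points. At ZT16 they were barely apart, with a lowest DRF value of 0.87 and a highest NRF value of 0.85. The share of all genes whose groups did not overlap was not counted at any time point. Of all genes, 9.56% were lower under DRF at ZT4, 7.26% at ZT8 and 8.08% at ZT12, and 7.95% were higher at ZT0, 7.67% at ZT20 and 7.1% at ZT24. Of these 6 time points 3 remained past the threshold without replicate 1, and 2 did so without replicate 2 or 3.

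Rbm3 differed at the same clock time at 3 of the 7 time points. At ZT0 it was higher under DRF by 0.89 ± 0.14 on the log2 scale (SE, adjusted p = 6.4e-06 by limma), and the groups did not overlap. It was lower under DRF at ZT12 (-0.45 ± 0.14, adjusted p = 0.0239, with 8.08% of genes lower) and at ZT16 (-0.40 ± 0.14, adjusted p = 0.0457, with 6.38% of genes lower), again without overlap. The other 4 differences ran from -0.11 to 0.34, with adjusted p-values of 0.109 to 0.721. Without replicate 2 or 3, 1 time point remained.

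At the same number of hours after food was given, the profiles did not coincide either. Cirbp was higher under DRF 8 h after feeding onset (0.82 ± 0.19, SE, adjusted p = 0.0038 by limma, with 6.46% of genes higher), and lower at 16 h (-0.99 ± 0.19, adjusted p = 0.000236, with 7.76% lower) and at 20 h (-0.77 ± 0.19, adjusted p = 0.00364, with 8.44% lower). Rbm3 was higher under DRF at 8 h (0.60 ± 0.14, adjusted p = 0.00436) and lower at 20 h (-0.51 ± 0.14, adjusted p = 0.00948). Without replicate 2, 3 or 4, 1 of these Rbm3 differences remained past the threshold. At feeding onset the differences were 0.14 ± 0.19 for Cirbp and 0.13 ± 0.14 for Rbm3, with adjusted p-values of 0.858 and 0.795. With the DRF livers of ZT24 in place of ZT0, a choice made after the data were seen, the Rbm3 difference at onset became -0.51 ± 0.14 (adjusted p = 0.0178, with 4.69% of genes lower).

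**Figure D2:**
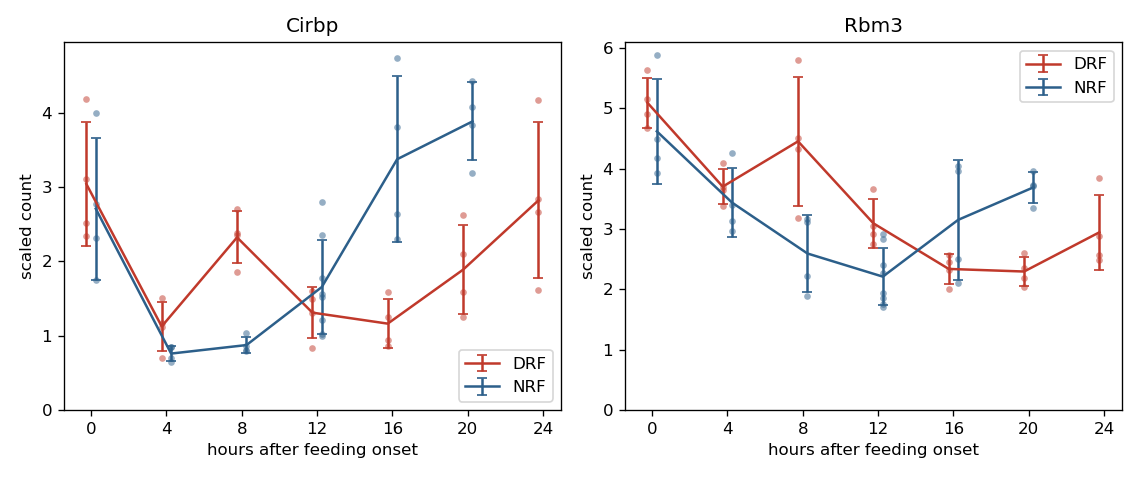
Scaled counts of Cirbp (left) and Rbm3 (right) against hours after feeding onset, with 1 point per liver, lines through the means and bars of 1 SD. Onset is ZT0 under DRF and ZT12 under NRF, and NRF livers of ZT0 and ZT24 share a position at 12 h. At 20 h both genes lie lower under DRF.

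**Figure D3:**
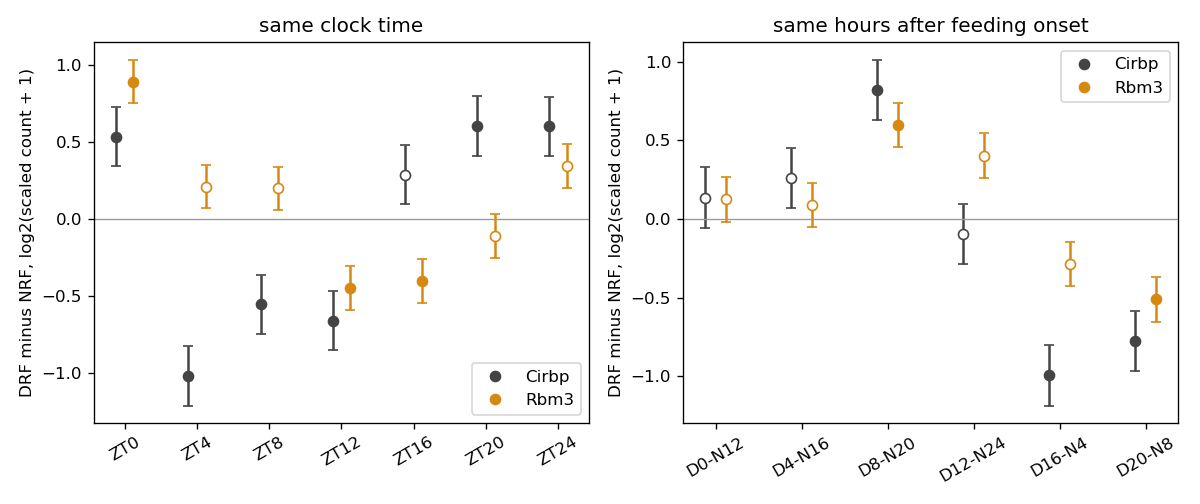
DRF minus NRF on log2(scaled count + 1) with bars of 1 SE, at the same clock time (left) and at the same hours after feeding onset (right, D for DRF and N for NRF), with filled points for an adjusted p under 0.05. Cirbp has 6 filled points of 7 on the left and 3 of 6 on the right, and Rbm3 has 3 and 2.

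ZT0 and ZT24 are the same time of day and serve as a control. Rbm3 under DRF was lower at ZT24 than at ZT0 by 0.64 on the log2 scale (-0.64 ± 0.14, SE, adjusted p = 0.0093 by limma), and 1.62% of genes were called lower in this contrast. The call was lost without replicate 3 (adjusted p = 0.110) and without replicate 4 (adjusted p = 0.0804). Under NRF the Rbm3 difference was -0.09 ± 0.14 (adjusted p = 0.818), and the regimens were not shown to differ in it (adjusted p = 0.682). For Cirbp it was -0.10 ± 0.19 under DRF and -0.17 ± 0.19 under NRF, with adjusted p-values of 0.866 and 0.718. The summed level of 4 red blood cell markers was 1490 ± 566 in the DRF livers of ZT0 and 1118 ± 335 in those of ZT24 (SD, n = 4), and 689 ± 158 in the NRF livers of ZT0. In DRF livers the sum was 1475 ± 452 at ZT4 and 752 ± 178 at ZT8, where mean Rbm3 was 3.70 and 4.45. In NRF livers of ZT12, where Rbm3 was highest for that regimen, the sum was 672 ± 175. The part of red blood cells in the Rbm3 difference was not tested.

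Within groups the genes moved together from liver to liver. After each group's mean was removed, the log2 values of Cirbp and Rbm3 correlated over 56 libraries with Pearson's r = 0.59 and Spearman's rho = 0.56 (two-sided permutation tests within groups, adjusted p = 9e-05 and 0.00042 over 3 relations). Within DRF r was 0.58 and rho 0.60 (permutation tests, adjusted p = 0.00318 and 0.00468), and within NRF r was 0.61 and rho 0.58 (permutation tests, adjusted p = 0.00544 and 0.00962). Without the 2 libraries farthest from the median of Cirbp, r was 0.55. Values from a library share its depth and scaling, and r was 0.62 once the trend with gene length was removed from each library and 0.59 with median-of-ratios scaling. Neither step removes other factors that genes of the same liver share. The r of other gene pairs was not computed, so it is not known whether this pair stands out.

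**Figure D4:**
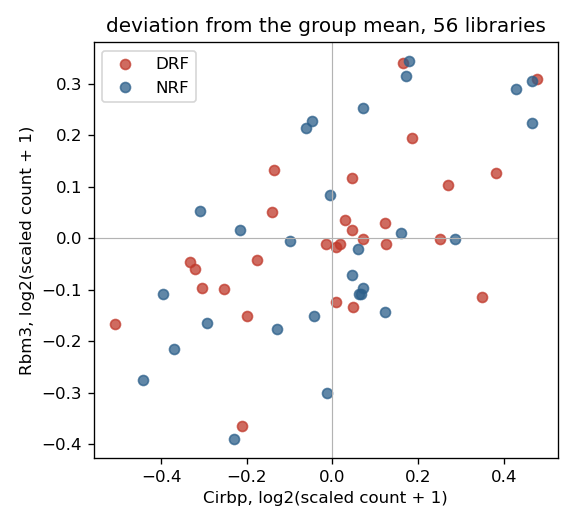
Deviation of each of 56 libraries from its group mean on log2(scaled count + 1), Cirbp on the x axis and Rbm3 on the y axis, with DRF in red and NRF in blue. Libraries high for Cirbp within their group tend to be high for Rbm3 (r = 0.59).

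Most of the rebuilt Cirbp transcript signal was in Cirbp-202, a protein-coding transcript, with a median share of 72.0% over 56 libraries. Cirbp-204, a retained-intron transcript, had 19.5%, a share that can depend on whether rRNA was depleted or polyA RNA selected, which the protocol and the molecule label give differently. Both differed between the regimens as whole profiles, with adjusted p = 4.25e-06 for Cirbp-202 and 1.87e-05 for Cirbp-204 by limma, where 14.1% of transcripts passed. Under NRF, Cirbp-202 fell from 3.29 ± 0.79 at ZT8 to 0.46 ± 0.20 at ZT16 (SD, n = 4), and Cirbp-204 had 0.85 ± 0.14 and 0.20 ± 0.13. Of the 5 Cirbp transcripts, limma called a rhythm in 1 under DRF and in 3 under NRF, against 10.5% and 15.1% of all transcripts, and the combined test in 2 and 3, against 19.4% and 19.3%. Under DRF limma gave an adjusted p of 0.0948 for a rhythm of Cirbp-202 and 0.0411 for Cirbp-204.

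The split of Rbm3 among its 8 transcripts varied widely between libraries. Rbm3-204 had the largest median share, 33.4%, but ran from 2.39% to 78.2% over libraries. Rbm3-201 was listed at 0 in 41 libraries and Rbm3-207 in 28. Rbm3-206, protein coding, and Rbm3-207, a target of nonsense-mediated decay, passed the whole-profile test with adjusted p = 0.00656 and 0.0428 by limma. Without replicate 3 none of the Rbm3 transcripts passed it. A rhythm was called by limma in 1 of the 8 under DRF and in 2 under NRF, and by the combined test in 3 and 3, beside the same shares of all transcripts, 10.5% and 15.1% by limma and 19.4% and 19.3% by the combined test.

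**Figure D5:**
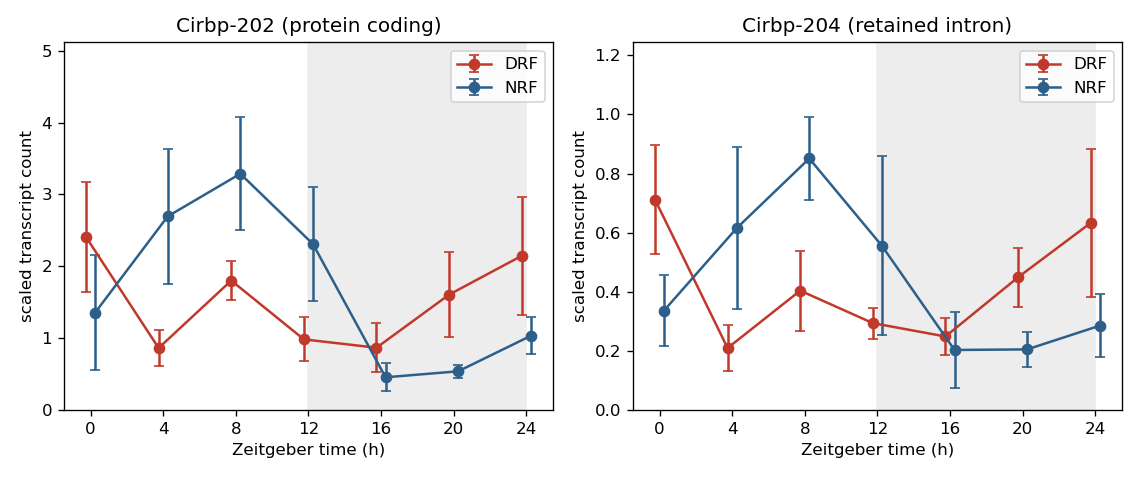
Group means of the scaled transcript counts of Cirbp-202 (left) and Cirbp-204 (right) by zeitgeber time in hours, with bars of 1 SD (n = 4) and the dark phase shaded. Under NRF both are highest at ZT8, at 3.29 and 0.85.

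The clock genes, whose transcripts CIRBP is known to bind, mostly turned over with feeding. Of 19 clock genes 18 differed between the regimens as whole profiles, against 38.7% of all genes. The median scaled count was 35.3 for this list and 1.44 over all genes, and the shares were not matched for level. The combined test called 18 rhythmic in both regimens, with a median shift of 10.97 h, against 7.95 h over all such genes. Cry1, a repressor of the clock, had its peak at 9.02 h in DRF livers and at 19.5 h in NRF livers. Nr1d2, a nuclear receptor of the clock, peaked at 21.6 h and 10.6 h, and Dbp, a clock output factor, at 23.96 h and 10.2 h. The fitted shifts of Cirbp and Rbm3 were smaller in size than those of these 3 genes. These 3 were named for the smallest p of the whole-profile test in the list. Clock, also on the list, had a shift of -7.46 ± 0.61 h (SE). Differences in shift between genes were not tested.

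Heat shock genes were listed because their products rise with heat. Of 18 genes of HSF1 and its targets 16 differed as whole profiles, against 38.7% of all genes. The combined test called a rhythm in 16 under NRF and in 8 under DRF, against 44.6% and 43.3% of all genes. For limma these numbers were 16 and 7, against 43.5% and 34.9%. The median shift was 11.5 h among the 8 that the combined test called in both regimens. The median scaled count of this list was 23.2, again not matched to all genes. The chaperone partner Dnaja1 had its peak at 4.83 h with DRF and at 17.0 h with NRF, the small heat shock protein gene Hspb1 at 6.85 h and 19.4 h, and the co-chaperone gene Fkbp4 at 7.94 h and 19.5 h. Hsf1 itself was not called in either regimen (limma adjusted p = 0.918 and 0.210).

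Of 9 measured regulators and partners of CIRBP and RBM3, 4 differed as whole profiles, a share near the 38.7% of all genes. Their median scaled count was 41.5, against 1.44 over all genes. Sp1, whose protein binds GC boxes, had its peak at 17.7 h with DRF and at 1.37 h with NRF. Prmt1, an arginine methyltransferase, had a fitted amplitude of 0.97 under DRF and 0.03 under NRF. Hnrnph1, an RNA-binding protein gene, passed with fitted peaks at 3.88 h and 19.3 h, but its rhythm was not called under NRF by the combined test (adjusted p = 0.119) or under DRF by limma (adjusted p = 0.198). Of 8 measured genes for cold shock domain and related RNA-binding proteins, 6 passed, against 38.7% of all genes. Their median scaled count was 12.5. Carhsp1, of the cold shock domain, peaked at 19.3 h with DRF, where limma did not call its rhythm (adjusted p = 0.209), and at 7.08 h with NRF, and Rbmxl1 at 5.51 h and 23.5 h.

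The genes most like each member over the 14 group means were taken among 6015 candidates. For Cirbp they were Sft2d1 (r = 0.97), Cmtm8 (0.95), Bin3 (0.95), Gm21992 (0.94) and Tsc22d4 (0.94). For Rbm3 they were Zc3h7b (r = 0.91), Ogfod3 (0.90), 1810058I24Rik (0.89), Hoga1 (0.88) and Tmem192 (0.87). Cirbp and Rbm3 had an r of 0.44 with each other over these means. Candidates needed a mean scaled count of at least 5, and both genes were below it. Neither could therefore be listed for the other.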

How the data were processed

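Liver RNA was sequenced by the study in 56 libraries, after rRNA depletion by the protocol, although the molecule label reads polyA RNA. Per the labels, CASAVA 1.8 and featureCounts 1.5.0-p3 were used with mm10 and GRCm38.p6. The authors deposited values named TPM, which are treated here as a score: value times exon length was a logarithm of 1 plus a multiple of a whole number. Undoing it gave scaled counts for 25374 of 25415 genes. In genes left out of the fit, 99.0% of counts up to 10 were whole within 0.05. In each higher range of counts up to 20000 the share was 96.6% to 96.8%. Lengths were from GENCODE, except for 2140 genes whose length was searched as one that made their counts whole. Cirbp and Rbm3 were not among these. Transcript values were rebuilt less exactly: 53.8% to 57.4% of single-transcript genes lay within 2% of the curve. The planned test assumed TPM.

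Rhythms were tested by an exact rank test against 12 templates and a cosinor F test, combined by Fisher's method, in Python 3.11.15 with numpy 2.4.6 and scipy 1.17.1. On simulated flat genes this combination was too liberal, because its p-values share the same data, while the rank test, the cosinor F test and limma were not. It was kept as the main test because the design was fixed, and the other tests are given beside it. Parameters were compared as in CircaCompare, and groups in limma 3.58.1 (R 4.3.3) on log2(scaled count + 1), with Benjamini-Hochberg adjustment over all genes. Amplitude and phase were adjusted over genes rhythmic in both regimens. A pseudocount of 1 understates changes of low genes.

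Both genes and all lists were chosen with earlier results of these data known. Named list genes are the 3 with the smallest p of the whole-profile test in each list, of which 1 is not reported here; similar genes are the 5 with the highest r over group means, with a mean scaled count of at least 5 and a range of at least 0.5. Nothing in the labels ties replicates to separate cages, so p-values measure the spread between these mice. The circular RNA table was not used.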

Additional observations from a re-analysis of the deposited data

Results flagged for a closer look

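Rbm3 in replicate 4 of the NRF livers at ZT24 lay above the other livers of its group, with a gap of 0.841 of the group's range. It was 1 of 28 groups of 4 so marked, and chance marks about 1 in 20 groups.

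The regimens differed in the whole daily profile of Cirbp (adjusted p = 2.63e-06 by limma) and of Rbm3 (adjusted p = 1.57e-05 by limma). The fitted peak was earlier under DRF for Cirbp (-6.32 h) and for Rbm3 (-6.23 h). The Cirbp amplitude was lower under DRF (-1.06 scaled counts). The Cirbp peak and amplitude rest on a DRF rhythm that the rank and cosinor tests did not call. The fitted Rbm3 peak under DRF lay near ZT4, where its mean was below those of ZT0 and ZT8.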

How the results depend on the processing

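The combined rhythm test was too liberal on simulated flat genes. For Cirbp under DRF its call was lost with the rank test alone (adjusted p = 0.0851), the cosinor F test alone (0.0616), without ZT0 (0.548) and without ZT24 (0.352), and ranged from 0.0316 to 0.132 when a replicate was left out. Except without replicate 4, where the amplitude difference of Cirbp had an adjusted p of 0.0887 and its phase difference 1.47e-05, neither then had an adjusted p. The amplitude difference was -1.06 with the rank or cosinor test, -1.25 without ZT0, -1.15 without ZT24 and -1.36 to -0.89 without a replicate. The phase difference was -6.32 h with the rank or cosinor test, -6.09 h without ZT0, -5.95 h without ZT24 and -6.93 to -5.78 h without a replicate. Leaving out replicates moved the 12-h adjusted p of Cirbp under DRF between 0.0328 and 0.238.

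Without a replicate, Cirbp differed at 2 to 5 time points and Rbm3 at 1 to 2, and Rbm3 at 1 to 2 feeding-matched pairs. The Cirbp transcripts called under DRF numbered 0 to 2 and those of Rbm3 1 to 2, with 1 each by limma. Rbm3 transcripts called under NRF numbered 0 to 2, and those with a whole-profile difference 0 to 1. The Rbm3 ZT24 minus ZT0 difference under DRF ran from -0.70 to -0.59, past the threshold in 2 of 4 cases.

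Signs turned only for differences that were not past the threshold, and of these the Rbm3 difference at feeding onset passed it at -0.51 with DRF ZT24. The Rbm3 mesor difference was -0.13 without ZT0 and -0.10 without replicate 1 (-0.10 to 0.31 over the replicates left out). The Rbm3 amplitude difference was 0.12 without ZT24, 0.18 without replicate 2 and 0.06 without replicate 3 (-0.19 to 0.18). With a replicate left out, Cirbp ran from -0.26 to 0.071 for DRF ZT12 minus NRF ZT24, from -0.18 to 0.00995 for ZT24 minus ZT0 under DRF and from -0.093 to 0.19 for the difference of the latter between regimens. Rbm3 at ZT20 ran from -0.25 to 0.00397, and its ZT24 minus ZT0 difference under NRF was 0.024 on deposited values. Where no value shows otherwise, the cause was not tested.

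Replicate numbers did not pair the libraries: 0 of 28 pairs at the same ZT had a correlation of deviations over 0.1, and 17 of 56 libraries were closest to their own number. With the replicate block, Cirbp differed at 4 time points and Rbm3 at 2, and the whole-profile adjusted p was 5.64e-06 for Cirbp and 2.97e-05 for Rbm3.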
